A study of Mus musculus with 2 samples.

Results

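The genes described here are 10 components of insulin signalling and glucose entry in mouse skeletal muscle: the glucose transporter genes Slc2a4, Slc2a1 and Slc2a3, the receptor and adaptor genes Insr, Irs1 and Irs2, the kinase subunit gene Pik3r1 and the kinase gene Akt2, and Tbc1d1 and Tbc1d4, which encode Rab GTPase-activating proteins. They were chosen by name, and all probe sets annotated to 1 of these symbols alone were taken, 27 of 45037 probe sets that are not controls. All 10 genes, of 18193 with a probe set of their own, had at least 1 probe set above the signal floor on both arrays, and 18 of the 27 probe sets were above it. The study set muscle of mice null for Jhdm2a, a histone H3 lysine 9 demethylase now named Kdm3a, against muscle of wild-type mice, with 1 Affymetrix expression array per genotype. Each array carried RNA combined from 3 mice before amplification. Both pools were of males, 3 months old, from a line made in 129 ES cells and crossed to C57BL/6 for 4 generations. The labels name neither the design of the null allele nor the muscle taken.

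Insulin binds its receptor on the muscle fibre, the receptor phosphorylates the IRS adaptors, and these recruit PI3-kinase, whose lipid product leads to activation of AKT2. AKT2 phosphorylates TBC1D4 (also called AS160) and its relative TBC1D1, which otherwise hold Rab GTPases inactive. Vesicles carrying GLUT4, the product of Slc2a4, then fuse with the surface membrane and glucose enters. Much of this control acts on proteins already made, by phosphorylation and movement of vesicles, and neither is read by an array of transcripts.

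The values are MAS5 signals on a linear scale, and the floor was a signal of 182, the 60th percentile over both arrays. Each gene was summarised by the log2 ratio of null-labelled over wild-type-labelled signal, averaged over the probe sets that cleared this floor on both arrays, which are called measured. With 1 array per genotype there is no replicate check and no test, and higher or lower describes these 2 arrays only, whose number limits the precision. Errors are technical only, taken between probe sets of 1 gene, whose SD was 0.29 per probe set over 3719 genes, while 18 hybridisation controls averaged -0.02 ± 0.09 (SD). Over 9696 measured genes the median log2 ratio was 0.04, and the middle 90% lay between -0.67 and 0.53. The targeted gene Kdm3a read 488 in the pool labelled null, against 406 in the pool labelled wild-type, a log2 ratio of 0.26, so its level was not lower under the null label. Its 1 probe set may lie outside the disrupted sequence, whose position the labels do not state, and every direction below rests on the labels alone.

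The tissue label was checked against muscle fibre markers, all 10 of which were measured, with a median log2 ratio of 0.17. Their summed signal was 251755 in the pool labelled null, against 224990 in the pool labelled wild-type. Adipocyte, hepatocyte and neutrophil markers differed between the pools by far more, and several of the genes described here are expressed in those cells too. Of 10 adipocyte markers with a probe set, all 8 measured ones were below 0, with a median of -3.15, though the Car3 sets disagreed in sign. The list summed to 61938 in the pool labelled null, against 134504 in the pool labelled wild-type. Both sums include the brightest Car3 set, nearly equal at 26112 in the pool labelled null, against 24357 in the pool labelled wild-type. Of 11 hepatocyte markers, 3 were measured and all were below 0, while Apob, Fgb, Fgg and Ahsg were under the floor on both arrays. Their sum was 3646 in the pool labelled null, against 30144 in the pool labelled wild-type. Of 9 neutrophil markers, 8 were above the floor in the pool labelled null, against 2 in the pool labelled wild-type, and Cxcr2 was under it in both. They summed to 8555 in the pool labelled null, against 1190 in the pool labelled wild-type. Over all probe sets that are not controls, 18026 were above the floor in the pool labelled null, against 18004 in the pool labelled wild-type. Schwann cell and nerve markers summed to 24433 in the pool labelled null, against 16152 in the pool labelled wild-type, with all 5 measured genes above 0. Of 6 measured macrophage markers 2 were above 0, and the list summed to 5844 in the pool labelled null, against 6855 in the pool labelled wild-type. Fewer cells of a type and less RNA per cell cannot be told apart in such pools.

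**Figure D1:**
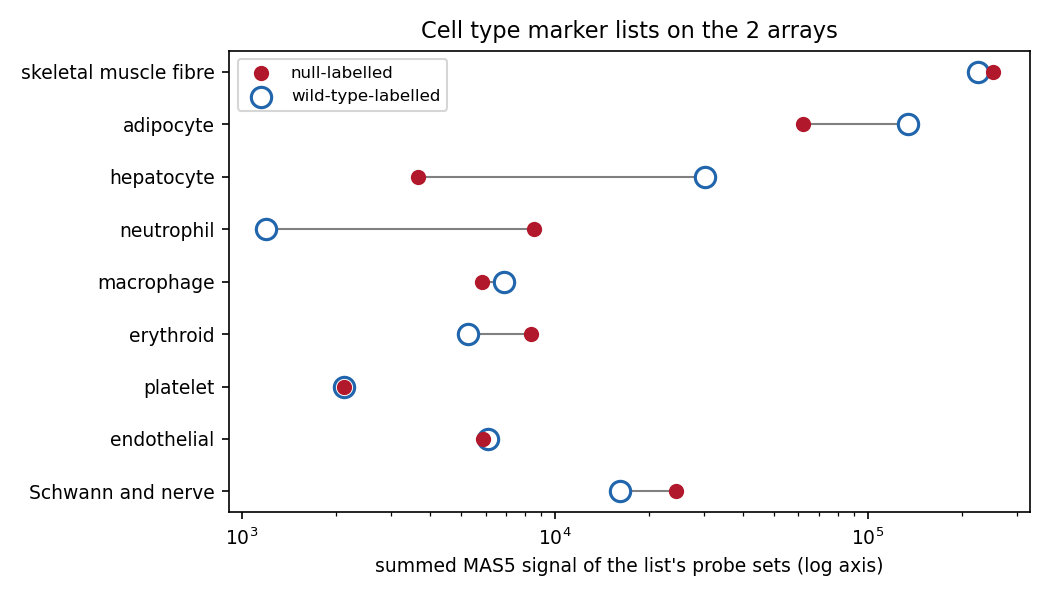
Summed MAS5 signal of each marker list on a log axis, filled circles for the null-labelled and open circles for the wild-type-labelled array. Muscle fibre, platelet, endothelial and macrophage sums lie close together on the 2 arrays, while the adipocyte and hepatocyte sums are lower and the neutrophil, erythroid and Schwann sums higher on the null-labelled array.

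The sequence upstream of a gene is shown for 4 of the 10: Slc2a1 and Tbc1d4, whose probe sets above the floor all read higher on the null-labelled array, and the adaptor pair Irs1 and Irs2, which had nearly equal signals on both. Each run is the 250 bases before the annotated RefSeq start, on the gene's own strand, from GRCm38.p6. Of the 10 genes, 7 had an entry, with 12 start sites between them. Capitals mark matches on either strand to ACGTG, the core letters bound by hypoxia-inducible factors, to CACGTG, the palindromic E-box, to GGGCGG, the GC box, and to TATAAA, the TATA box. Each CACGTG holds ACGTG on both strands and so counts for both.
Slc2a1, chr4:119108495-119108744, plus strand: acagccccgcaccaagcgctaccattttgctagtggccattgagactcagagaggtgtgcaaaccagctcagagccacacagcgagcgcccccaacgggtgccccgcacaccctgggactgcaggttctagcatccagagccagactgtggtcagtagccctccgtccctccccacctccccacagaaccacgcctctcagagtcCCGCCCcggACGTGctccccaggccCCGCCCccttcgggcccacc
Tbc1d4, chr14:101609192-101609441, minus strand: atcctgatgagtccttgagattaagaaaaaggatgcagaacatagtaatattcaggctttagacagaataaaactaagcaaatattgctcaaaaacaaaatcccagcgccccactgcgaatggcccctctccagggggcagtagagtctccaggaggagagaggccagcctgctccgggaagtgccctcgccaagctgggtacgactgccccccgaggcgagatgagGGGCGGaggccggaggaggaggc
Irs1, chr1:82291440-82291689, minus strand: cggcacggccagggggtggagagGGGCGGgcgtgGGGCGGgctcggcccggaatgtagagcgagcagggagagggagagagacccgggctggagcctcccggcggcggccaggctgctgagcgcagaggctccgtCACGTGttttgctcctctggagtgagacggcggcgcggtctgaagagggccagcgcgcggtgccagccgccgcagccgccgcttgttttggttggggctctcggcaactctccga
Irs2, chr8:11008930-11009179, minus strand: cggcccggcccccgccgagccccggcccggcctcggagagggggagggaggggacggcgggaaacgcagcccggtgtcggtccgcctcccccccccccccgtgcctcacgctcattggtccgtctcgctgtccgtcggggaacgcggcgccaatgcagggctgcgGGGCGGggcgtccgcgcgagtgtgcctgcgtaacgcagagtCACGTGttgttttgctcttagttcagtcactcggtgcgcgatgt
The Irs1 and Irs2 windows each hold 1 CACGTG, a motif found in 6.02% of 32851 such windows over all genes. The Slc2a1 window holds 1 ACGTG, 36 bases before the start, between 2 GC boxes, and ACGTG occurs in 16.6% of all windows. The Tbc1d4 window holds 1 GC box, and 32.7% of all windows hold at least 1. None of the 4 windows holds TATAAA, which is in 12.4% of all windows. These matches describe letters and do not show that a factor binds.

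Among the glucose transporters, Slc2a3 was the 1 gene of the 10 past 1.5-fold, and it was higher in the null-labelled RNA, as 3.35% of the 9696 measured genes were by this rule, which asks all measured probe sets of a gene for 1 sign. Slc2a3 encodes GLUT3, a high-affinity transporter best known from neurons and also present in white blood cells and platelets. Its probe set 1437052_s_at read 1213 in the pool labelled null, against 703 in the pool labelled wild-type. The set 1455898_x_at, designed from the same sequence record, read 472 in the pool labelled null, against 254 in the pool labelled wild-type. Both were higher on the null-labelled array, and the gene's log2 ratio was 0.84 ± 0.08 (SD of 2 probe sets), 1.79-fold, at percentile 99.4 of all measured genes. Both lay above the middle 90% of measured probe sets of like signal, which ended at 0.60 for mean signals of 500 to 1000 and at 0.62 for lower ones. Because these sets share a source, their closeness is not a check by separate probes. The suffixes _s_at and _x_at mark probes that match more than 1 transcript or resemble other sequences. The other 2 Slc2a3 sets were under the floor on both arrays, at 17.4 and 60.7 in the pool labelled null, against 6.50 and 46.3 in the pool labelled wild-type, so the difference rests on the shared-source pair. Of 7 platelet markers 4 were measured, 2 above and 2 below 0, while Gp9, Ppbp and Gp6 were under the floor. They summed to 2115 in the pool labelled null, against 2111 in the pool labelled wild-type. The neutrophil sum was several-fold higher on the null-labelled array and the nerve markers were higher too, and their part in the Slc2a3 value was not tested.

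Slc2a4 encodes GLUT4, the insulin-responsive transporter of muscle and fat. Its probe set 1415958_at read 10621 in the pool labelled null, against 10885 in the pool labelled wild-type, nearly equal, with a log2 ratio of -0.04. Its other set, 1415959_at from the same record, read 4536 in the pool labelled null, against 3161 in the pool labelled wild-type, a log2 ratio of 0.52. The 2 sets disagree in sign, so the mean of 0.24 ± 0.39 (SD of 2 probe sets) gives no direction for Slc2a4. The ratio of the second set lay inside the middle 90% of 4928 measured probe sets with mean signals of 1000 to 4000, which ran from -0.75 to 0.59. Its mean signal was near the upper end of that range. Above 4000 the middle 90% ended at 0.47, which 0.52 would exceed.

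Slc2a1 encodes GLUT1, the transporter of basal glucose uptake, abundant in the endothelium of the brain, in the perineurium and, in humans, in red cells. Its set 1426599_a_at read 527 in the pool labelled null, against 368 in the pool labelled wild-type, and 1426600_at read 321 in the pool labelled null, against 262 in the pool labelled wild-type. The set 1434773_a_at read 705 in the pool labelled null, against 672 in the pool labelled wild-type. All 3 were higher on the null-labelled array by unequal amounts, from 0.07 to 0.52, and the mean was 0.29 ± 0.22 (SD of 3 probe sets). Of 5 erythroid markers 3 were measured, all above 0, and Hba-a1 and Epb42 were under the floor. Erythroid markers summed to 8401 in the pool labelled null, against 5285 in the pool labelled wild-type. Bpgm was the brightest of them, its top set at 2893 in the pool labelled null, against 2283 in the pool labelled wild-type. Its log2 ratio of 0.56 ± 0.19 (SD of 3 probe sets) was the smallest of the 3. Slc4a1 had 1.60 and Alas2 0.70, from 1 measured set each. Endothelial markers, 4 of 8 above 0, summed to 5870 in the pool labelled null, against 6128 in the pool labelled wild-type. Nerve markers were higher, with a sum of 24433 in the pool labelled null, against 16152 in the pool labelled wild-type. The part of any of these cells in the Slc2a1 value was not tested.

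**Figure D2:**
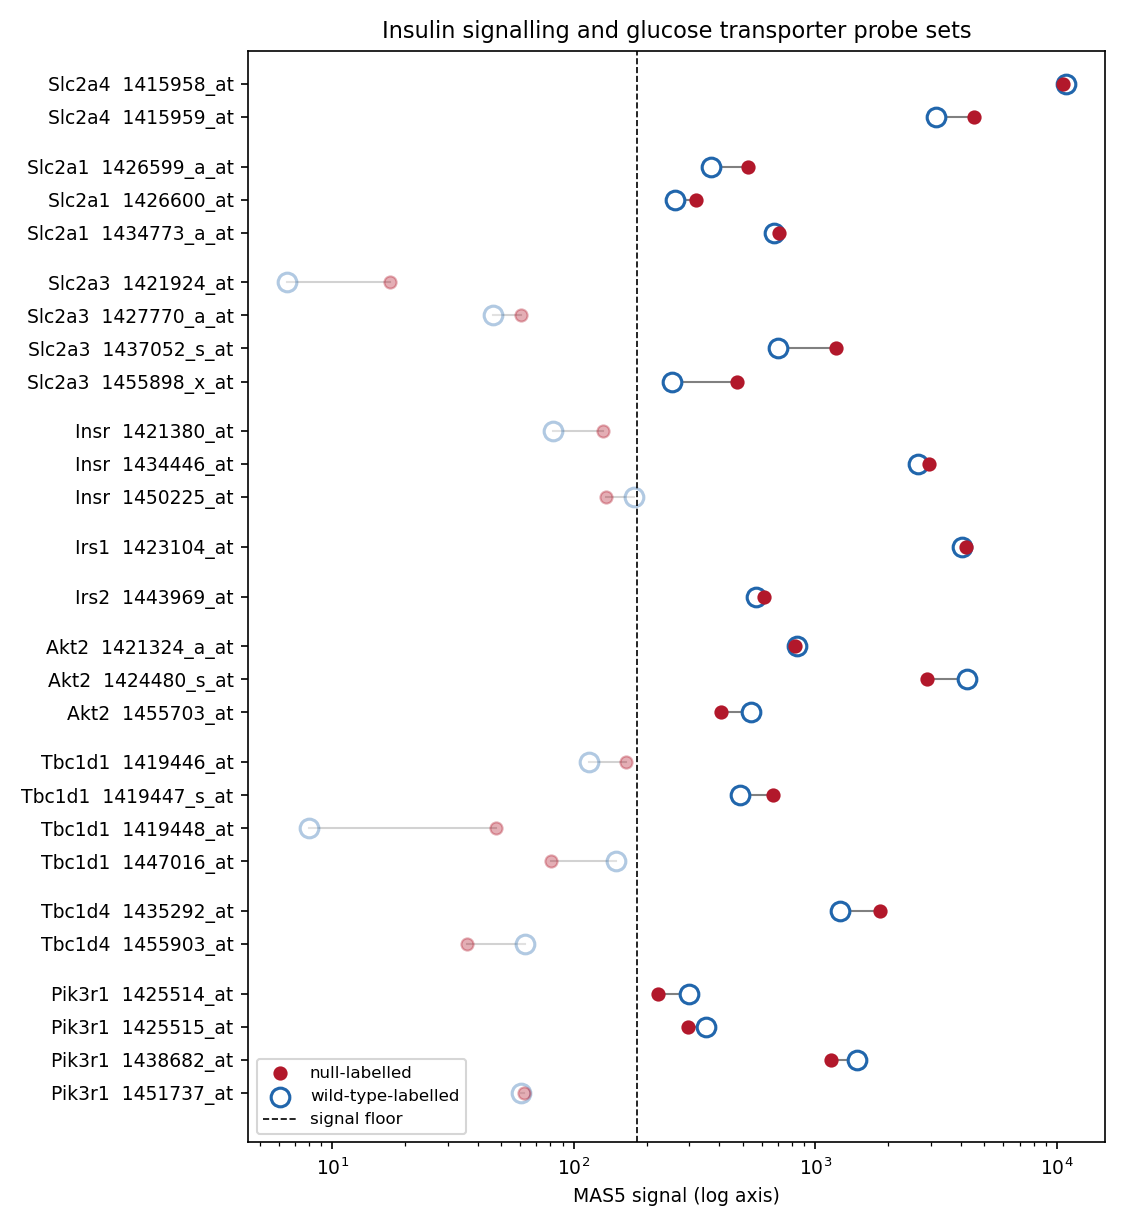
MAS5 signal of all 27 probe sets of the 10 genes on a log axis, filled circles for the null-labelled and open circles for the wild-type-labelled array, pale where either array was under the floor (dashed line, 182). Slc2a1 and Slc2a3 circles shift right on the null-labelled array and Akt2 and Pik3r1 circles shift left, while the 9 pale probe sets, 6.50 to 177, point in both directions.

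Most of the other facilitative glucose transporters were not measured. Of 8 with a probe set, Slc2a12, which encodes GLUT12, had a log2 ratio of 0.42, and Slc2a8, which encodes the intracellular transporter GLUT8, had -0.18. Slc2a5, the fructose transporter gene, was above the floor in the wild-type-labelled pool alone, with 91.0 in the pool labelled null, against 394 in the pool labelled wild-type, at least 2.16-fold lower. Slc2a2, the liver and islet transporter gene GLUT2, was under the floor on both arrays, with 11.1 in the pool labelled null, against 96.1 in the pool labelled wild-type.

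At the top of the pathway, the transcripts of the receptor and both adaptors were nearly equal in the pools. Insr, the insulin receptor gene, read 2956 in the pool labelled null, against 2648 in the pool labelled wild-type in its 1 measured set, 1434446_at, a log2 ratio of 0.16. Its 2 sets under the floor went in opposite directions. Irs1, the main adaptor of the receptor in muscle, read 4207 in the pool labelled null, against 4042 in the pool labelled wild-type, a log2 ratio of 0.06. Irs2, the second widespread adaptor, read 613 in the pool labelled null, against 568 in the pool labelled wild-type, a log2 ratio of 0.11. Each of these 3 genes rests on 1 probe set, and each ratio is smaller than that SD of 0.29. Irs3, an adaptor expressed in rodent fat, read 5.70 in the pool labelled null, against 333 in the pool labelled wild-type, at least 1.83-fold lower. The fat-expressed adaptor gene Sh2b2, also called APS, read 157 in the pool labelled null, against 640 in the pool labelled wild-type, at least 3.51-fold lower. Adipoq, the adipocyte hormone gene, read 1145 in the pool labelled null, against 11443 in the pool labelled wild-type, and the part of adipocyte RNA in the Irs3 and Sh2b2 values was not tested.

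Among 5 further measured receptors and adaptors none reached 1.5-fold, and their median was -0.01. Shc1, which links the receptor to RAS, had -0.20, Gab1, a docking protein, 0.17 ± 0.14 (SD of 3 probe sets), and Grb2, an SH2 adaptor, -0.01 ± 0.21 (SD of 2 probe sets, of opposite sign). The 6 measured genes of a list of receptor inhibitors and phosphatases, not all of them plain inhibitors, had a median of -0.05. None reached 1.5-fold. Socs3, which blocks receptor signalling, had -0.26 ± 0.10 (SD of 2 probe sets). Ptpn1, a phosphatase that removes phosphate from the receptor, had -0.17 ± 0.42 (SD of 2 probe sets, of opposite sign), and the phosphatase gene Ptpn11 had 0.04.

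Pik3r1 and Akt2, the next steps, were the 2 genes of the 10 below 0. Pik3r1 encodes the p85α regulatory subunit of PI3-kinase and, from inner starts, its shorter forms. Its set 1438682_at read 1165 in the pool labelled null, against 1488 in the pool labelled wild-type. The sets 1425514_at and 1425515_at, both from 1 sequence record, read 222 and 297 in the pool labelled null, against 300.3 and 352 in the pool labelled wild-type. All 3 measured sets were lower in the pool labelled null, and averaged -0.34 ± 0.10 (SD of 3 probe sets), 1.27-fold lower, and the fourth, at 62.1 in the pool labelled null, against 60.4 in the pool labelled wild-type, was under the floor. The other regulatory subunit genes Pik3r2 and Pik3r3 had -0.24 and 0.23, from 1 probe set each. The 8 other measured subunits had a median of 0.04 with none past 1.5-fold. The catalytic subunit gene Pik3ca had 0.01 ± 0.20 (SD of 5 probe sets, of opposite sign). Pik3c3 and Pik3r4, which form the class III kinase of endosomes and autophagy, had 0.34 and 0.26. Of 4 measured phosphoinositide phosphatases none reached 1.5-fold. Inpp5k, a 5-phosphatase of muscle, had 0.34 ± 0.42 (SD of 3 probe sets), Inpp5d, the SHIP1 gene of blood cells, -0.40, and Inppl1, which encodes SHIP2, 0.11.

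Akt2 encodes the AKT kinase that carries the insulin signal to glucose uptake in muscle and fat. Its set 1424480_s_at read 2905 in the pool labelled null, against 4230 in the pool labelled wild-type, and 1455703_at read 405 in the pool labelled null, against 539 in the pool labelled wild-type. The set 1421324_a_at read 823 in the pool labelled null, against 843 in the pool labelled wild-type. The first pair of these sets were lower and the last nearly equal, so the mean of -0.33 ± 0.26 (SD of 3 probe sets), 1.26-fold lower, depends on the probe set. Akt1, the paralog that acts mainly in growth, had 0.19 ± 0.56 (SD of 2 probe sets, of opposite sign). Mtor, the kinase that as part of mTORC2 completes AKT activation, was lower in both measured sets, at -0.40 ± 0.02 (SD of 2 probe sets), and Pdpk1, the other activating kinase, had -0.24 ± 0.66 (SD of 2 probe sets, of opposite sign). None of the 6 other AKT kinases and activators measured reached 1.5-fold, and their median was -0.05. The 4 measured AKT inhibitors lay between -0.05 and -0.01, among them the pseudokinase gene Trib2 at -0.05 and the phosphatase gene Phlpp1 at -0.02. The phosphatase catalytic subunit gene Ppp2ca had -0.01 ± 0.15 (SD of 2 probe sets, of opposite sign). The other 3 inhibitors, Phlpp2, Trib1 and Trib3, were above the floor in the pool labelled wild-type alone. In the pool labelled null Phlpp2 was at least 1.15-fold and Trib1 at least 1.36-fold lower, and Trib3 read 171 in the pool labelled null, against 199.9 in the pool labelled wild-type. Adipocytes and hepatocytes also express Pik3r1 and Akt2, and the part of their RNA in these lower values was not tested.

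Tbc1d4 and Tbc1d1, which couple AKT to GLUT4 vesicles, each had 1 measured probe set, which read higher on the null-labelled array, short of 1.5-fold. Tbc1d4, set 1435292_at, read 1850 in the pool labelled null, against 1261 in the pool labelled wild-type, a log2 ratio of 0.55 (1.47-fold) at percentile 95.7 of measured genes. Tbc1d1, set 1419447_s_at, read 667 in the pool labelled null, against 487 in the pool labelled wild-type, a log2 ratio of 0.46 (1.37-fold) at percentile 92.5. The second Tbc1d4 set, under the floor, was lower at 36.2 in the pool labelled null, against 63.0 in the pool labelled wild-type. Without a floor the mean of both Tbc1d4 sets was -0.03, so no direction is given for the gene. Of 3 Tbc1d1 sets under the floor, 2 were higher and 1 lower on the null-labelled array.

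Read together, 1 of the 10 genes was at least 1.5-fold higher, where 3.35% of all measured genes were. None was at least 1.5-fold lower, where 6.27% of all measured genes were. With 10 genes, shares this small say little about the group. Of the 10 ratios 8 were above 0, against 55.7% of all measured genes, and 2 were below 0, against 44.3%. A like lean was seen in the 10 muscle fibre markers, 9 of them above 0, with a median of 0.17. Probe sets with mean signals above 4000 had a median of 0.10, and those in the lower signal ranges had medians of 0.02 to 0.05. Of the measured sets of the 10 genes, only 1415958_at of Slc2a4 and the Irs1 set lay above 4000, at -0.04 and 0.06. The median of the 10 was 0.20, against 0.04 over all measured genes, but it was 0.09 when each gene was read by its brightest set, 0.12 without a floor, 0.12 after loess and 0.13 with the higher floor or with plain _at probe sets alone. Of the 18 measured probe sets 11 were higher and 7 lower, but sets of 1 gene are not independent, and no such count was made over all probe sets. In 4 of the 5 genes with several measured sets the sets shared a sign, which 59.3% of all such genes did, and Slc2a4 was the exception.

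**Figure D3:**
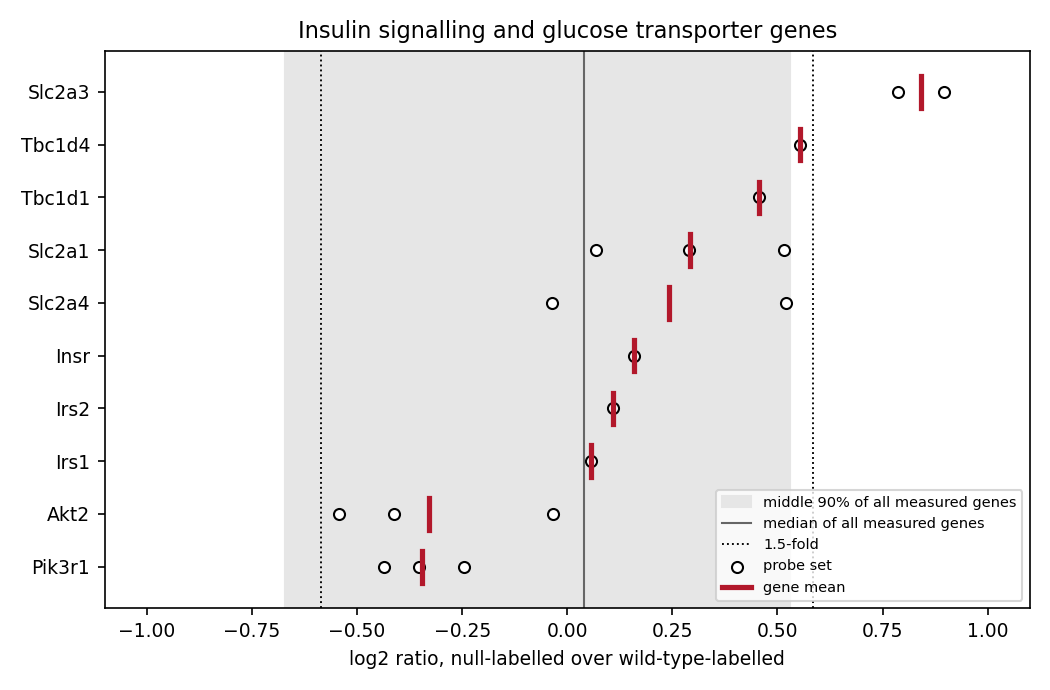
Log2 ratio, null-labelled over wild-type-labelled, of each measured probe set (open circles) and the mean of each gene (bars), with the middle 90% of all measured genes in grey and 1.5-fold as dotted lines. Slc2a3, at 0.84, lies past 1.5-fold, Tbc1d4, at 0.55, lies between the grey band and that line, and the Slc2a4 circles fall on both sides of 0.

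Downstream of AKT, 15 targets and mTORC1 components had a median of 0.06, and 1 was past 1.5-fold. Pde3b, the phosphodiesterase through which insulin restrains fat breakdown in adipocytes, read 568 in the pool labelled null, against 3153 in the pool labelled wild-type, 5.55-fold lower (log2 ratio -2.47). Ucp1, the brown adipocyte uncoupling protein gene, read 283 in the pool labelled null, against 14885 in the pool labelled wild-type. Of the other brightest adipocyte markers, Fabp4 had -1.11 ± 0.10 (SD of 2 probe sets) and Car3 -0.67 ± 0.82 (SD of 4 probe sets, of opposite sign). These markers differed by unequal amounts, and the part of fat RNA in the Pde3b value was not tested. Rheb, the GTPase that activates mTORC1, had 0.36.

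Genes of GLUT4 vesicle traffic had medians near that of all genes, with a few members past 1.5-fold in either direction, where 3.35% of all measured genes were higher and 6.27% lower. Of 14 Rab and Ral GTPases and their regulators, 1 was higher and 1 lower, and the median was -0.01. Dennd4c, an exchange factor that activates RAB10 in adipocytes, read 1802 in the pool labelled null, against 1169 in the pool labelled wild-type, 1.54-fold higher. Its log2 ratio of 0.63 fell just under the 1.5-fold line of 0.585 with the median set to 0 (0.584) and after loess (0.580). Ralgapa2, a subunit of the Ral GTPase-activating complex that AKT inhibits, read 376 in the pool labelled null, against 637 in the pool labelled wild-type, 1.69-fold lower. Rhoq, the TC10 GTPase gene, had 0.06. Of 19 sorting, tethering and fusion genes, 1 was higher and 2 lower, with a median of -0.06. Snap23, a SNARE protein of GLUT4 vesicle fusion, had 0.67 ± 0.67 (SD of 2 probe sets). The first of these sets read 979 in the pool labelled null, against 442 in the pool labelled wild-type. The second read 437 in the pool labelled null, against 380 in the pool labelled wild-type. A further set, above the floor in the pool labelled null alone, read 332 there, against 166 in the pool labelled wild-type. Ehd2, a membrane-shaping ATPase of caveolae, which are abundant in fat, had -0.80 ± 0.50 (SD of 3 probe sets), but was short of 1.5-fold with the floor at the 50th percentile (-0.57), at the 75th (-0.53) and without a floor (-0.43). Myo5a, a vesicle motor, had -0.79 ± 0.59 (SD of 2 probe sets). Its remaining set, above the floor in the pool labelled wild-type alone, read 132 in the pool labelled null, against 369 in the pool labelled wild-type. Cltc, the clathrin heavy chain gene, had 0.20.

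The RAS branch and glucose phosphorylation held no gene past 1.5-fold. Of 4 measured RAS and MAP kinase genes the exchange factor Sos2 had 0.38 and the kinase Map2k1 0.26. Hk2, the insulin-induced hexokinase that traps glucose in muscle fibres, read 11138 in the pool labelled null, against 10853 in the pool labelled wild-type, a log2 ratio of 0.04, and Hk1 had -0.31. Over all 89 measured genes of the pathway lists beyond the 10, 2 were at least 1.5-fold higher and 4 lower, against 3.35% and 6.27% of all measured genes. Of the 89, 43 were above 0, against 55.7% of all measured genes, and the median was -0.01. A further 7 pathway list genes were above the floor in the pool labelled wild-type alone, among them Slc2a5, Irs3 and Sh2b2, and enter none of these counts. No pathway list gene was above it in the pool labelled null alone. Such a count was not made over all genes, so it gives no result about the lists. Some of the 7 lay close to the floor of 182, such as Trib3, at 171 in the pool labelled null, against 199.9 in the pool labelled wild-type.

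**Figure D4:**
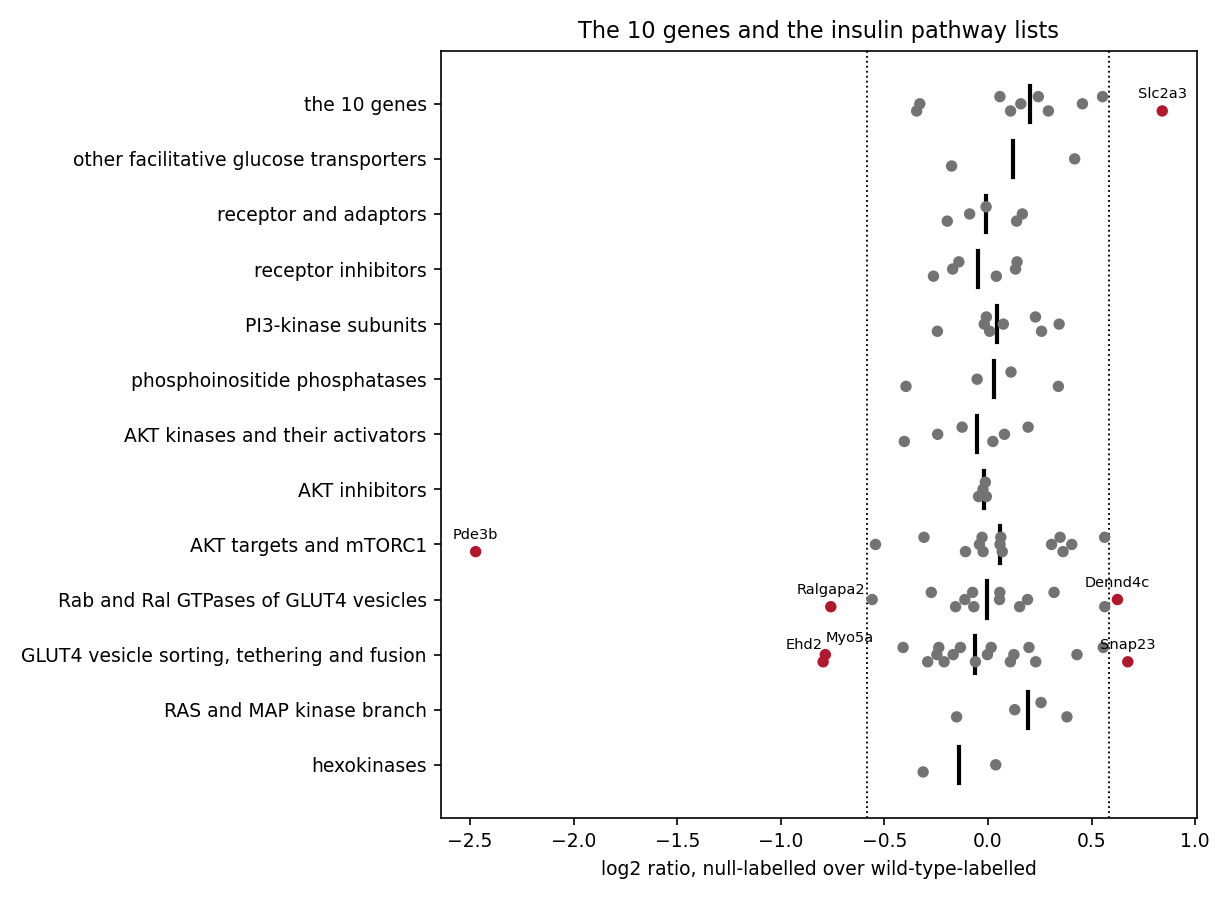
Log2 ratio, null-labelled over wild-type-labelled, of the 10 genes and of each measured gene of 12 pathway lists, with list medians as bars and 1.5-fold as dotted lines. Named red points passed 1.5-fold with all probe sets of 1 sign, and list medians lie between -0.14 and 0.20.

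The 10 ratios were recomputed under 8 other ways of processing. Slc2a3 ranged from 0.62 to 0.87, past 1.5-fold in each, except that with plain _at probe sets alone, without the _s_at and _x_at pair, it was not measured. Tbc1d1, whose 1 set above the reported floor is an _s_at set, ranged from 0.38 to 0.49 and was not measured there either. Pik3r1 ranged from -0.39 to -0.24 and Akt2 from -0.54 to -0.29, below 0 each time. Tbc1d4 kept 0.51 to 0.57 except without a floor, where its dim second set brought the mean to -0.03. Tbc1d4, Slc2a4, Insr and Irs1 each changed sign once, so no direction is given for these 4 genes.

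**Figure D5:**
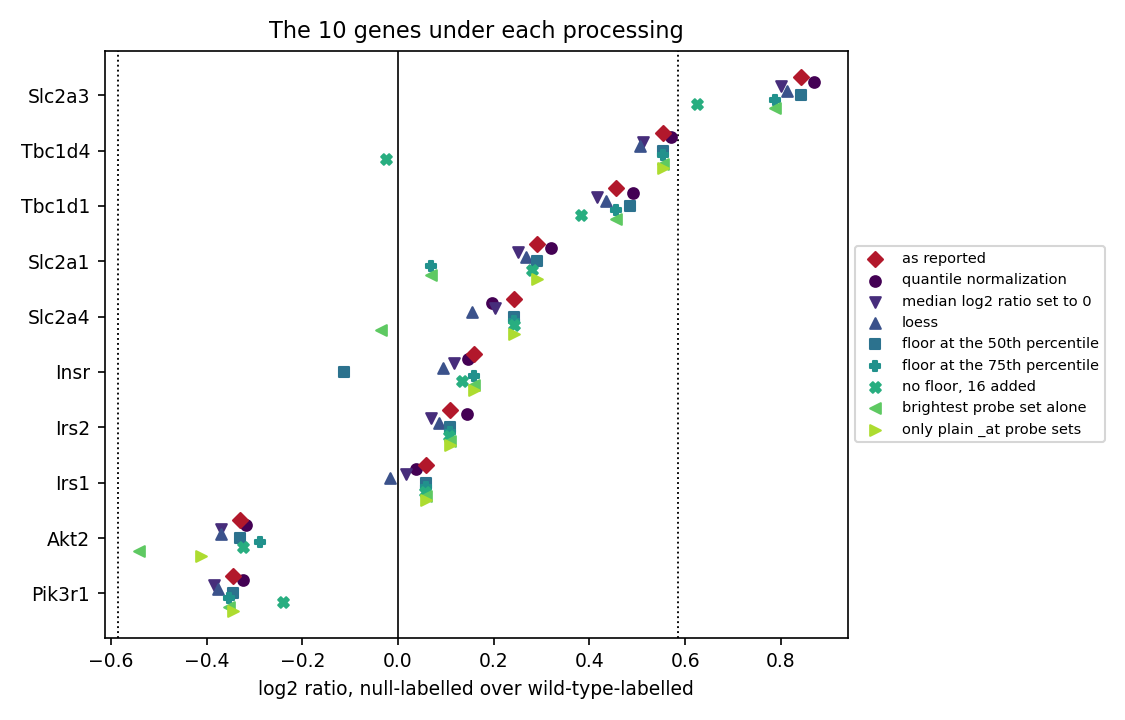
Log2 ratio, null-labelled over wild-type-labelled, of the 10 genes as reported (red diamonds) and under 8 other ways of processing, with 1.5-fold as dotted lines. Slc2a3 stays right of the upper line at 0.62 or more, Akt2 and Pik3r1 stay left of 0, and Tbc1d4, Slc2a4, Insr and Irs1 each have 1 marker left of 0.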

How the data were processed

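RNA of 3 mice per genotype was pooled and hybridised to 1 array each. The deposited intensity values are MAS5 signals, per the submitters' processing notes, which give no version. As deposited, the 2% trimmed mean was 500 and the median 112 on each array, with 18026 probe sets above the floor in the pool labelled null and 18004 in the pool labelled wild-type. Genotypes were taken from the source labels, and the values were used as deposited. The 64 control probe sets and those with several symbols (932) or none (9160) in the platform annotation were left out of gene values. The identifiers of all 10 genes matched RefSeq. A gene counted at 1.5-fold when its measured probe sets shared a sign. A gene above the floor on 1 array alone was given the brighter signal divided by the floor as a lower bound of its fold. No test was run.

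The 10 genes and the lists were chosen with earlier results of these data known. Genes named are the 10, Kdm3a, list genes past 1.5-fold or else the pair with the largest ratios, and the brightest of each pathway list. The brightest 3 of each marker list, which the rule also allowed, are given as list sums, except Ucp1, Fabp4, Car3, Bpgm, Slc4a1 and Alas2. Pik3r2, Pik3r3, Akt1, Phlpp2, Trib1, Trib3, Slc2a2, Slc2a5, Irs3, Sh2b2, Adipoq and the markers under the floor were named after their values were seen. The calculation, tested on simulated data, used Python 3.11.15, pandas 2.3.3 and statsmodels 0.14.6 (loess span 0.4).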

Additional observations from a re-analysis of the deposited data

How the results depend on the processing

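The 8 alternatives were quantile normalization, a median ratio set to 0, loess, a floor at the 50th or 75th percentile, no floor with 16 added to each signal, the brightest probe set alone, and only probe sets of the plain _at kind. Of 78 values for the 10 genes, 77 moved by less than the SD between probe sets. Many of these could not move. Irs1 and Irs2, with 1 probe set each, keep their value under either other floor, the brightest set or plain _at sets. All 8 alternatives also reuse the same 2 arrays, so the count is no measure of replication. Of the 78 values, 4 changed sign: Slc2a4 with the brightest set (-0.04), Insr with the floor at the 50th percentile (-0.11), Irs1 after loess (-0.02) and Tbc1d4 without a floor (-0.03). The Tbc1d4 value was the 1 that moved by more than that SD. None of the 10 was past 1.5-fold with plain _at sets alone, where 8 were measured. Of pathway list genes, 4 were at least 1.5-fold higher after quantile normalization (3.79% of all genes), and 1 with the median set to 0 (2.62%) or after loess (2.71%), where Dennd4c fell just short. The number lower was 7 with the floor at the 50th percentile (6.73% of all genes) or the brightest set (6.96%), 2 with the floor at the 75th percentile (5.03%) and 9 without a floor (10.1%). Without a floor 6.86% of all genes were at least 1.5-fold higher. The cause of these shifts was not tested. Signals near the floor limit what can be read. No paired analysis was possible because each genotype has 1 array.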
